A study of Mus musculus with 2 samples.

Results

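The genes described here are 9 members of 3 imprinted clusters of the mouse genome, *Snrpn*, *Ndn*, *Mkrn3*, *Magel2* and *Ube3a* of the *Snrpn* cluster on chromosome 7, *Peg10* and *Sgce* on chromosome 6, and *Peg3* and *Usp29* at another place on chromosome 7. They were taken by name, 9 of 31053 genes counted, with earlier results of these data known, so how many of them differ is a description of these genes. Single-cell RNA-seq of E14 mESCs had been done with 1 library of parental cells (WT) and 1 library of cells in which *Smad1* and *Smad5* had been targeted with CRISPR-Cas9 (S1/5 dKO), to compare cell states without SMAD1/5. Both were feeder-free cultures on gelatin in SL, a serum medium with 15% FBS and 1000 U/ml LIF. Which S1/5 dKO line or clone the library came from is not stated. Use was made of cells in which 1000 or more genes were detected and no more than 5% of UMIs were mitochondrial, which left 2236 WT cells and 2910 cells of the other library. A UMI marks 1 captured RNA molecule at its 3′ end, so a level in UMIs per 1000000 UMIs of the cells (CPM) was not divided by gene length. The cells held 95965242 UMIs in WT, a median of 38662 per cell, and 109020533 UMIs, a median of 34548.5, in the library labelled dKO. No cell barcode (0) was shared between the libraries.

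Imprinted genes are expressed mainly from the chromosome of one parent, under DNA methylation laid down in the germ line at a control region of each cluster. In the *Snrpn* cluster, *Snrpn*, *Ndn*, *Mkrn3* and *Magel2* are expressed from the paternal chromosome, and *Ube3a* from the maternal one in neurons and from both in most other cells. *Peg10*, *Sgce*, *Peg3* and *Usp29* are also paternally expressed. The allelic expression of such genes is known to vary between cultured ESC lines. UMI counts do not separate the alleles, so the parental origin of the RNA and the methylation of the control regions were not measured here.

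The targeted genes were examined first. *Smad1* (ENSMUSG00000031681, GRCm38 chromosome 8, 79338395 to 79399518) had 13.4 CPM from 1285 UMIs in WT and 9.17 CPM from 1000 UMIs in the other library. *Smad5* (ENSMUSG00000021540, chromosome 13, 56703010 to 56742377) had 6.05 CPM from 581 UMIs in WT and 9.09 CPM from 991 UMIs in the other library. The *Smad1* mRNA level thus goes with the label and the *Smad5* mRNA level against it, and a 3′ tag outside an edited exon does not check a deletion. For this reason the library with the label S1/5 dKO is called "the library labelled dKO" throughout, and every direction below is drawn from that library. Each condition has 1 library, so no test was run between conditions. Intervals are exact 95% Poisson, binomial or conditional intervals that cover counting error only, not the spread between cultures.

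Both libraries had the markers of pluripotent cells. All 6 pluripotency markers were detected, with a summed level of 2713 CPM in WT and 2746 CPM in the library labelled dKO, and *Pou5f1* was the most abundant at 1316 and 1292 CPM. The 6 endoderm markers summed to 2.15 and 1.95 CPM, led by *Gata6*, with none (0) undetected. For the 6 trophoblast markers the sums were 1.92 CPM in WT, led by *Gata3*, and 1.41 CPM, led by *Eomes* and with *Elf5* at 0 UMIs. Fibroblast markers summed to 1.19 and 1.32 CPM over 6 genes led by *Thy1*, with *Col3a1* at 0 UMIs in both libraries and *Postn* at 0 in WT. The 6 neural markers summed to 157 and 167 CPM, of which *Tubb3* made up 141 and 152, and none was at 0 UMIs. The 9 markers of 2-cell-like cells summed to 2.02 CPM in WT and 4.48 CPM in the library labelled dKO, led by *Zscan4d*, with *Tcstv1* at 0 UMIs in WT. For the 10 endoplasmic reticulum chaperone genes the sums were 1069 and 1047 CPM, led by *Manf*, and none was at 0.

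Of the 9 members, 8 had at least 50 UMIs over both libraries, and the level of 5 of these in the library labelled dKO was 1.5-fold or more that in WT. Among all 13654 genes with at least 50 UMIs, 384 (2.81%) were at least 1.5-fold higher and 357 (2.61%) at least 1.5-fold lower. *Snrpn*, *Peg10*, *Sgce*, *Peg3* and *Usp29* were the 5 higher members, and 0 members were at least 1.5-fold lower. Past 2-fold, 2 of the 8 were higher, *Peg10* and *Usp29*, against 119 of all genes (0.872%), and 0 were lower, against 59 of all genes (0.432%). The log2 ratios, the library labelled dKO over WT, of the 5 higher members lay between 0.88 and 1.19. Those of *Ndn*, *Mkrn3* and *Ube3a* lay between −0.18 and −0.045, so the median of the 8 members, 0.91, does not describe these genes. Over the 13654 single genes the median was −0.0069, with 5th and 95th percentiles of −0.44 and 0.40. *Ndn*, *Mkrn3* and *Ube3a*, which share the cluster of *Snrpn*, lay within 1.5-fold.

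**Figure D1:**
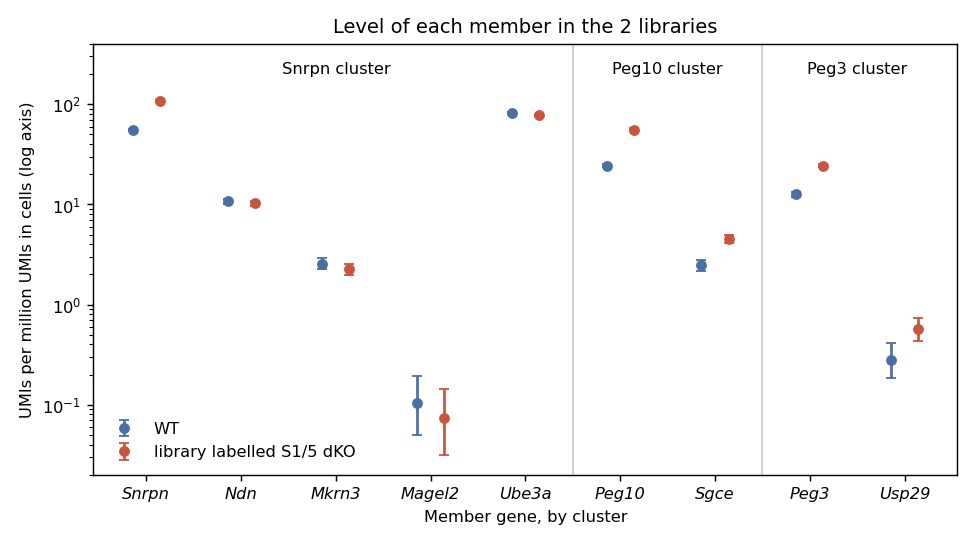
Level of each of the 9 members, in CPM on a log axis, in WT (blue) and the library labelled dKO (red), with exact 95% Poisson intervals as bars. *Snrpn* (55.7 and 108), *Peg10* (24.5 and 55.9), *Sgce*, *Peg3* and *Usp29* are higher in the latter, while the points of *Ndn*, *Mkrn3* and *Ube3a* lie close together and the wide bars of *Magel2* overlap.

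*Snrpn* (ENSMUSG00000102252, GRCm38 chromosome 7, 59982495 to 60140219, minus strand) encodes a core protein of small nuclear ribonucleoproteins. It has several starts, and the control region of its cluster lies at a start of this gene. *Ube3a* (ENSMUSG00000025326, chromosome 7, 59228750 to 59311536, plus strand) encodes an E3 ubiquitin ligase. Their promoters are shown because these are the most abundant members of 1 cluster and had different ratios. The windows, from RefSeq for GRCm38.p6, run from 250 bases before to 50 bases after a start, and 7 of the 9 members matched the table, all but *Peg10* and *Sgce*. Of the 4 *Snrpn* windows, the one shown is chr7:60005150-60005449 on the minus strand, picked after the search because it alone held a motif. It is not at the outer end of the gene span given above. It lies beside the starts of *Snurf* and *Gm38393*, at 60005049 and 60005064 on the same strand. Which window lies in the control region was not examined. That of *Ube3a* is chr7:59228500-59228799 on the plus strand. Capitals mark TGCCGC, the core letters bound by the imprint-protecting factor ZFP57, or AANATGGC, a core bound by YY1, each searched on both strands.
Snrpn: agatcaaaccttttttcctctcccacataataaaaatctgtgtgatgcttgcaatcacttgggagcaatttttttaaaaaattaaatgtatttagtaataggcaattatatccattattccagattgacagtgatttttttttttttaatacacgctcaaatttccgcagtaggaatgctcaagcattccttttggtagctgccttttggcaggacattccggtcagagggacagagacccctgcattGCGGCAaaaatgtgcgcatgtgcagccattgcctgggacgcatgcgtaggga
Ube3a: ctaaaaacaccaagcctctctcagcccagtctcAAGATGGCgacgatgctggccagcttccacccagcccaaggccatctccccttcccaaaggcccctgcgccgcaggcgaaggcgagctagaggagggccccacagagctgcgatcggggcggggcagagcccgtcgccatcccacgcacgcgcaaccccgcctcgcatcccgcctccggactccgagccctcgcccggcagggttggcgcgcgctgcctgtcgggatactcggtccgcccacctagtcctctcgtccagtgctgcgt
The *Snrpn* window held 1 TGCCGC, on the opposite strand, and 7 CpG, and the *Ube3a* window held 1 AANATGGC and 29 CpG. Of 32851 promoter windows in the table, 11.6% held TGCCGC and 6.05% held AANATGGC, and the median was 7 CpG (quartiles 3 and 20). The other 3 *Snrpn* windows held neither motif and 2 to 4 CpG. *Ndn*, *Mkrn3* and *Magel2* had 11, 15 and 10 CpG, and of these *Mkrn3* held 1 AANATGGC. A match is a description of these letters and not a bound site.

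*Snrpn* had 55.7 CPM from 5343 UMIs in WT (54.2 to 57.2) and 108 CPM from 11760 UMIs in the library labelled dKO (106 to 110). The intervals did not overlap, and the log2 ratio was 0.95 (0.91 to 1.00), a fold of 1.94. This ratio was rank 134 from the top among the 13654 genes. *Gm38393* and *Snurf* overlap *Snrpn* on the same strand and share 589 and 216 of its 2159 exonic bases, so reads could be split or lost between them and the counts of *Snrpn* are uncertain. *Snurf* had 0 UMIs in both libraries, but all of its 216 exonic bases are shared with *Snrpn*, so this gives no measure of its level. *Gm38393*, named after the annotation was seen, had 212 and 442 UMIs, a log2 ratio of 0.88 (0.64 to 1.12). Summed over the 3 genes, an alternative chosen after seeing the data, the log2 ratio was 0.95 (0.91 to 1.00).

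*Ube3a* had 81.2 CPM from 7790 UMIs in WT (79.4 to 83.0) and 78.7 CPM from 8579 UMIs in the library labelled dKO (77.0 to 80.4). These intervals overlapped, and the log2 ratio was −0.045 (−0.089 to −0.00039). *Ndn* (ENSMUSG00000033585, chromosome 7, 62346569 to 62350262), which encodes the MAGE family protein necdin, had 10.8 CPM from 1032 UMIs in WT (10.1 to 11.4) and 10.3 CPM from 1123 UMIs (9.71 to 10.9), a log2 ratio of −0.062 (−0.19 to 0.061). *Mkrn3* (ENSMUSG00000070527, chromosome 7, 62417593 to 62420139), a makorin family gene known for its role in the timing of puberty, had 2.56 CPM from 246 UMIs (2.25 to 2.90) and 2.27 CPM from 247 UMIs (1.99 to 2.57), a log2 ratio of −0.18 (−0.44 to 0.082). *Magel2* (ENSMUSG00000056972, chromosome 7, 62377010 to 62381640), another MAGE gene, had 10 UMIs in WT cells and 8 in cells of the library labelled dKO. With so few UMIs its log2 ratio of −0.51 had an interval of −2.05 to 0.99, and a difference of the size of that of *Snrpn* was not detectable at this depth.

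Within the *Snrpn* cluster the ratios of the members differed by more than counting error for 3 of the 4 pairs with *Snrpn*. The log2 ratio of *Ube3a* was lower than that of *Snrpn* by a difference of −0.999 (−1.06 to −0.93). In UMIs, there were 146 of *Ube3a* for every 100 of *Snrpn* in WT and 73.0 for every 100 in the library labelled dKO, so that *Snrpn* passed *Ube3a* in the order of levels. The differences were −1.02 (−1.15 to −0.88) for *Ndn* and −1.13 (−1.40 to −0.87) for *Mkrn3*. For *Magel2* the interval included 0, at −1.46 (−3.00 to 0.034). *Snrpb*, the non-imprinted paralog of *Snrpn*, had 576 CPM in WT and 614 CPM in the library labelled dKO, and its log2 ratio of 0.094 was 0.86 below that of *Snrpn* (difference −0.86, −0.91 to −0.81).

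Other genes of the *Snrpn* domain were taken from a list of 13, of which 12 were in the gene table and 7 had at least 50 UMIs. None (0) of these 7 was at least 1.5-fold higher or lower, and their median log2 ratio was −0.030, between −0.28 for *Nipa1* and 0.038 for *Atp10a*. *Herc2*, next to the cluster, had 12.6 and 12.1 CPM, and the intervals overlapped (11.9 to 13.3 and 11.5 to 12.8). *Nipa2* and *Cyfip1*, the most abundant of the list, had log2 ratios of −0.0017 and −0.030. *Peg12*, a paternally expressed gene beside *Mkrn3*, had 15 UMIs for WT and 26 for the library labelled dKO. *Oca2*, *Gabra5* and *Gabrg3* had at most 11 UMIs in either library. *Snhg14*, the long transcript that runs from *Snrpn* towards *Ube3a*, is not in the gene list used and was not analysed here.

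**Figure D2:**
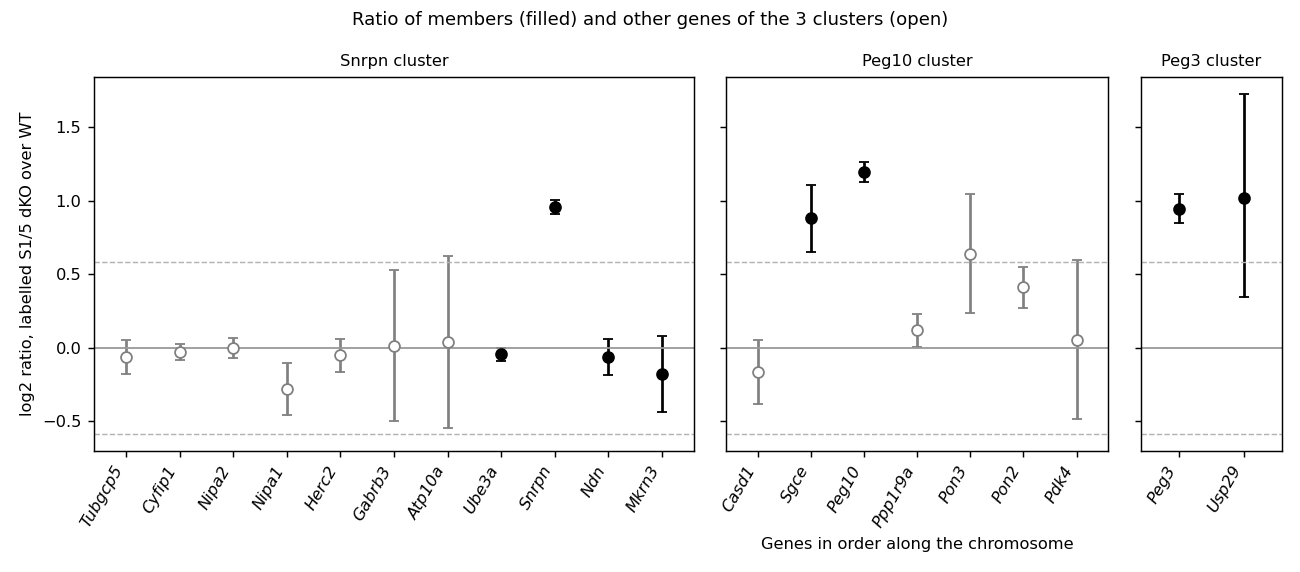
Log2 ratio, the library labelled dKO over WT, of members (filled) and other listed genes (open) with at least 50 UMIs in each cluster, in their order along the chromosome, with 95% counting intervals; dashed lines mark 1.5-fold. *Snrpn* at 0.95 stands above its neighbours *Ube3a* and *Ndn* near 0, while *Sgce* and *Peg10* (0.88 and 1.19) and *Peg3* and *Usp29* (0.94 and 1.02) are high as pairs.

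*Peg10* and *Sgce* start 99 bases apart and point away from each other. *Peg10* (ENSMUSG00000092035, GRCm38 chromosome 6, 4747306 to 4760517, plus strand) derives from a retrotransposon and is required in the placenta, and *Sgce* (ENSMUSG00000004631, chromosome 6, 4674350 to 4747207, minus strand) encodes epsilon-sarcoglycan. *Peg10* had 24.5 CPM from 2347 UMIs in WT (23.5 to 25.5) and 55.9 CPM from 6098 UMIs in the library labelled dKO (54.5 to 57.4), a log2 ratio of 1.19 (1.12 to 1.26), rank 85 of the 13654 genes. *Sgce* had 2.46 CPM from 236 UMIs (2.16 to 2.79) and 4.52 CPM from 493 UMIs (4.13 to 4.94), a log2 ratio of 0.88 (0.65 to 1.11). Neither pair of levels overlapped between the libraries. The ratio of *Sgce* was below that of *Peg10* by a difference of −0.31 (−0.55 to −0.074), and 10.1 UMIs of *Sgce* were counted per 100 of *Peg10* in WT and 8.08 per 100 in the library labelled dKO.

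Of 11 other genes of the *Peg10* domain, all in the gene table, 5 had at least 50 UMIs, and their median log2 ratio was 0.12. *Pon3* was the 1 gene of these at least 1.5-fold higher, with 0.844 CPM from 81 UMIs in WT (0.670 to 1.05) and 1.31 CPM from 143 UMIs in the library labelled dKO (1.11 to 1.55), a log2 ratio of 0.64 (0.23 to 1.05). Its neighbour *Pon2*, like *Pon3* a paraoxonase gene, had 7.53 CPM (6.99 to 8.10) and 10.0 CPM (9.42 to 10.6), a log2 ratio of 0.41 (0.27 to 0.55). *Casd1*, on the *Sgce* side, had 3.60 and 3.20 CPM, a log2 ratio of −0.17 (−0.39 to 0.051), and differed from *Peg10* by −1.36 (−1.59 to −1.13). *Ppp1r9a* and *Pdk4* had log2 ratios of 0.12 and 0.053. *Asb4*, known as maternally expressed, had 7 and 20 UMIs, and *Calcr* had 8 and 8.

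*Peg3* and *Usp29* also lie head to head, with starts 147 bases apart. *Peg3* (ENSMUSG00000002265, GRCm38 chromosome 7, 6703892 to 6730431, minus strand) encodes a large zinc finger protein, and *Usp29* (ENSMUSG00000051527, chromosome 7, 6730578 to 6967219, plus strand) a ubiquitin-specific protease. The promoter window of *Peg3*, chr7:6730370-6730669 on the minus strand from RefSeq for GRCm38.p6, is shown because 263 of its 300 bases are also in the window of *Usp29*.
Peg3: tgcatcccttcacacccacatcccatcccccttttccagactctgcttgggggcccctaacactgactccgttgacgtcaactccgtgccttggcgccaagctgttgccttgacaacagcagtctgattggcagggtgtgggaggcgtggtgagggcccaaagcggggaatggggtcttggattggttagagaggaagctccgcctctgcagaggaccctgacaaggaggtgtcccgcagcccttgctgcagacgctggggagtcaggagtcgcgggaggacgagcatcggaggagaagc
It held 13 CpG and that of *Usp29* held 17, and neither held TGCCGC or AANATGGC. At least 10 CpG were found in 43.5% of the 32851 promoter windows.

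*Peg3* had 12.7 CPM from 1219 UMIs in WT (12.0 to 13.4) and 24.4 CPM from 2663 UMIs in the library labelled dKO (23.5 to 25.4). The log2 ratio was 0.94 (0.85 to 1.04), rank 137 of the 13654 genes, with no overlap of the intervals. *Usp29* was scarce, with 27 UMIs in WT (0.281 CPM, 0.185 to 0.409) and 62 UMIs in the library labelled dKO (0.569 CPM, 0.436 to 0.729). Its log2 ratio of 1.02 had a wide interval, 0.34 to 1.72, and differed from that of *Peg3* by 0.072 (−0.61 to 0.79). *Zim3*, antisense to *Usp29* over 2582 exonic bases, had 0 UMIs in both libraries. Use of strand in the counting is not given in the sources used here, so whether UMIs of this pair were told apart is not known. *Zim1*, a maternally expressed zinc finger gene next to *Peg3*, had 15 and 11 UMIs. Of the 6 other genes listed for this domain 2 were in the gene table, 0 of them with 50 UMIs.

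The 3 clusters were then set side by side. The log2 ratio of *Peg3* was within counting error of that of *Snrpn* (difference −0.011, −0.12 to 0.099), and that of *Peg10* was higher by 0.24 (0.16 to 0.32). Per 100 UMIs of *Snrpn* there were 22.8 of *Peg3* in WT and 22.6 in the library labelled dKO. In WT the order of levels ran from *Ube3a* through *Snrpn*, *Peg10*, *Peg3*, *Ndn*, *Mkrn3*, *Sgce* and *Usp29* to *Magel2*. Neighbours in this order had separate intervals except *Mkrn3* with *Sgce* and *Usp29* with *Magel2*. In the other library *Snrpn* stood before *Ube3a* and *Sgce* before *Mkrn3*, and no neighbours had overlapping intervals.

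Genes around the clusters were counted within 1 Mb on either side, without the listed ones, and those named here were picked after their values were seen. Around *Snrpn*, 2 of 11 genes had at least 50 UMIs, *Gm38393*, which overlaps *Snrpn*, and *Chrna7*, with a log2 ratio of −0.14. Around *Peg10*, 2 of 5 had as many, *Gng11* and *Bet1*, with log2 ratios of −0.10 and 0.051. The 13 of 44 genes around *Peg3* had a median log2 ratio of 0.027, between −0.41 for *Clcn4* and 0.52 for *Epp13*, and 0 of them were 1.5-fold apart. Among all 13654 genes with at least 50 UMIs, 2.81% were at least 1.5-fold higher and 2.61% at least 1.5-fold lower. Within 2 Mb, genes past 1.5-fold were found around each cluster, all higher in the library labelled dKO. They were 2 of 9 around *Snrpn* (with *Gm38393*), 1 of 7 around *Peg10* and 3 of 39 around *Peg3*, counts too small to set against these shares. The highest log2 ratios there were 0.89, 0.95 and 0.84, close to those of the higher members, and the medians were 0.062, −0.049 and 0.059. Of 10 non-imprinted paralogs of the members, 8 had at least 50 UMIs, with a median log2 ratio of 0.016. Among these 8, *Mkrn1* had the highest ratio (0.15, 1099 and 1219 CPM), and *Sgcd* was the 1 past 1.5-fold, lower at −1.07 (−1.73 to −0.44) with 61 and 33 UMIs.

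*Mest*, an imprinted gene outside these clusters, had 11.3 CPM from 1087 UMIs in WT and 93.6 CPM from 10203 UMIs in the library labelled dKO, a log2 ratio of 3.05 (2.96 to 3.14). The log2 ratios of the 5 higher members, from 0.88 to 1.19, were all smaller.

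Detection per cell was compared after each cell was thinned at random to 10000 UMIs, which left out 43 WT cells and 67 cells of the library labelled dKO. A *Snrpn* UMI was then found in 905 of 2193 WT cells (41.3%, 39.2 to 43.4%) and in 1794 of 2843 cells (63.1%, 61.3 to 64.9%) of the other library. Without thinning, the shares were 83.5% and 93.2%. Poisson counting at the mean of 0.560 and 1.07 UMIs per cell would give 42.9%, inside the interval of WT, and 65.8%, above the interval of the library labelled dKO. *Ube3a* was detected in 54.9% (52.8 to 57.0%) and 52.3% (50.4 to 54.2%) of the thinned cells, and in 90.8% and 87.6% without thinning.

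For *Peg10* the shares of thinned cells were 18.9% (17.3 to 20.6%) in WT and 37.6% (35.8 to 39.4%) in the library labelled dKO, against 20.9% and 43.5% under Poisson counting. Unthinned, they were 51.7% and 71.3%. Cells with 5 or more *Peg10* UMIs after thinning numbered 24 in the library labelled dKO (0.844%), where a Poisson of that mean gives 0.0313%, and 0 in WT. *Peg3* was found in 13.3% (11.9 to 14.8%) and 20.3% (18.8 to 21.8%) of the thinned cells, and in 35.6% and 50.3% without thinning. The shares of thinned cells were 2.19% and 4.29% for *Sgce*, 10.9% and 8.83% for *Ndn* and 2.46% and 2.81% for *Mkrn3*, of which the last goes against its CPM and gives no order. At 5000 UMIs those of *Ndn* were in the other order, 4.98% and 5.15%, and so give none either. Unthinned, *Sgce* was found in 9.35% and 14.6%, *Ndn* in 33.7% and 29.6%, and *Mkrn3* in 10.2% and 8.18% of the cells. *Usp29* was seen in 5 and 18 thinned cells (26 and 62 unthinned) and *Magel2* in 1 and 1 (10 and 8 unthinned).

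**Figure D3:**
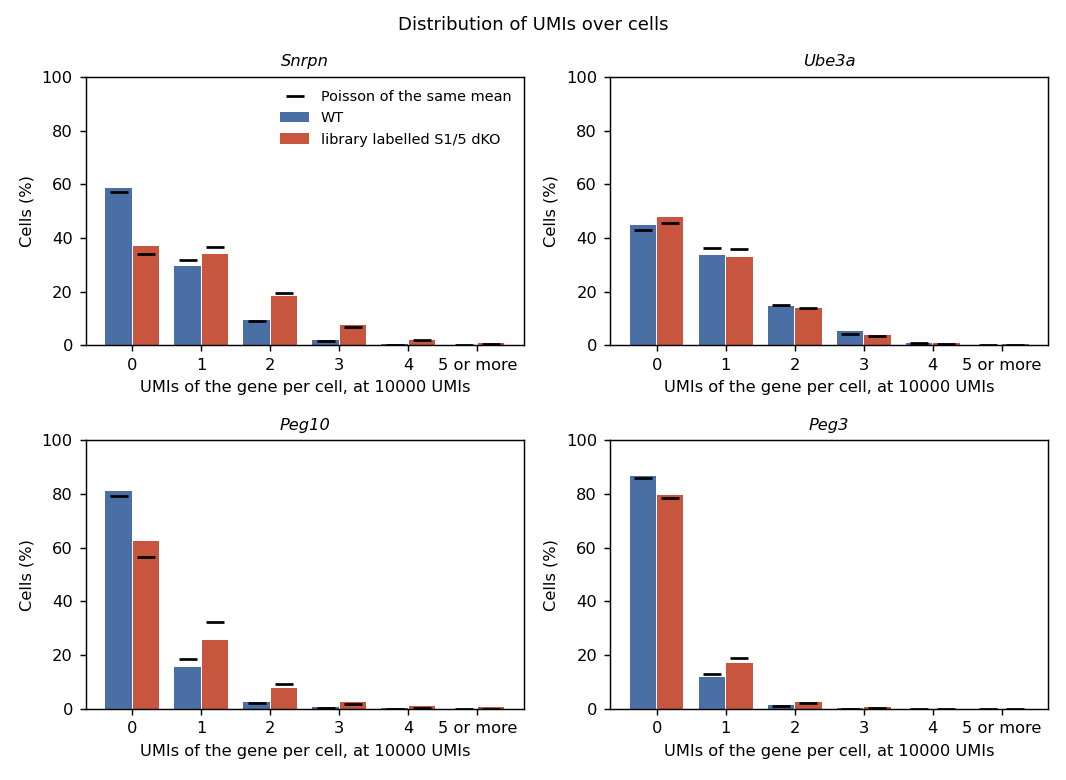
Share of cells with 0 to 5 or more UMIs of *Snrpn*, *Ube3a*, *Peg10* and *Peg3* after thinning each cell to 10000 UMIs, in WT (blue bars) and the library labelled dKO (red bars); black dashes give a Poisson of the same mean. Cells without a *Snrpn* UMI make up 58.7% of WT and 36.9% of the other library, and all 4 genes have more cells at 0 than the dashes give.

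The spread over cells was expressed as overdispersion, the variance above the mean divided by the squared mean, at 10000 UMIs. *Peg10* had 1.22 in WT and 1.09 in the library labelled dKO, where 1111 and 799 genes of a similar mean had medians of 0.140 and 0.0926. Of those genes 97.9% and 98.6% were lower than *Peg10*. *Peg3* had 0.661 and 0.701, above 92.2% and 95.3% of genes of like mean, and *Snrpn* had 0.173 and 0.135, above 74.4% and 77.5%. The sparse *Sgce* had 5.75 and 1.69, above 95.01% and 87.7%. In WT, 46 thinned cells had 1 *Sgce* UMI, 1 cell had 2 and 1 cell had 3, so the WT value rests on very few cells. Genes of a mean like that of *Sgce* had medians of 0.399 in WT and 0.384 in the library labelled dKO. By the share of genes that were lower, *Peg10* thus stood highest of these members in both libraries. As a multiple of the median of like genes, *Sgce* stood above *Peg10* in WT, through those few cells, and below it in the other library. *Ndn*, *Mkrn3*, *Magel2* and *Usp29* were not compared with genes of like mean.

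Free RNA sets a floor for such shares, and no cell type known to lack these genes was present. It was measured in barcodes of 10 to 100 UMIs, which are mostly empty droplets. *Snrpn* had 51.6 CPM there in WT (91 UMIs, 41.5 to 63.3) and 89.9 CPM from 176 UMIs (77.1 to 104) in the library labelled dKO, the same order as in cells. *Peg10* had 36.3 CPM from 64 UMIs (27.9 to 46.3) in the empty barcodes of WT, above its 24.5 CPM in cells, and 66.4 CPM from 130 UMIs (55.5 to 78.8) in those of the other library. *Ube3a* had 56.7 CPM (46.1 to 68.9) and 50.05 CPM (40.6 to 61.0), below its level in cells in both libraries. These barcodes held 1764311 UMIs in WT and 1958216 in the other library, against 95965242 and 109020533 in cells. *Mest*, used below to divide the cells, had 14.2 CPM (9.17 to 20.9) in the empty barcodes of WT, against 11.3 CPM in cells. In the library labelled dKO it had 64.9 CPM (54.1 to 77.2) there, against 93.6 CPM in cells. How far free RNA added to the shares of cells with a UMI, or to divisions of cells by a UMI, was not tested.

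The ratios were recomputed within quartiles of UMIs per cell, with limits from both libraries together, since the libraries differed in depth. *Snrpn* had log2 ratios of 0.91 to 1.00 over the 4 quartiles, *Peg10* 1.00 to 1.28, *Sgce* 0.71 to 1.18 and *Peg3* 0.73 to 1.05. *Ube3a* had −0.24 (−0.36 to −0.11) and −0.19 (−0.28 to −0.087) in the 2 quartiles of the fewest UMIs, and 0.079 (−0.010 to 0.17) and 0.010 (−0.060 to 0.080) in the other 2. *Ndn* lay between −0.21 and 0.031 and *Mkrn3* between −0.40 and 0.24. Over tertiles of the share of UMIs on 8 mitotic genes, *Snrpn* had 0.93 to 0.99, *Peg10* 0.96 to 1.34, *Sgce* 0.85 to 0.89 and *Peg3* 0.91 to 1.04. *Ube3a* had −0.24 (−0.33 to −0.15) in the tertile of the lowest share, then −0.031 (−0.11 to 0.049) and 0.027 (−0.042 to 0.096). *Ndn* lay between −0.24 and 0.050, with an interval below 0 in the middle tertile (−0.46 to −0.017), and *Mkrn3* between −0.35 and 0.12. *Snrpn*, *Peg10*, *Sgce* and *Peg3* were thus higher in the library labelled dKO in all 4 quartiles and all 3 tertiles. So was *Usp29*, whose ratios of 0.26 to 3.23 over the quartiles rest on as little as 1 UMI in WT, but its intervals included 0 in 3 of the 4 quartiles and in 1 tertile.

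**Figure D4:**
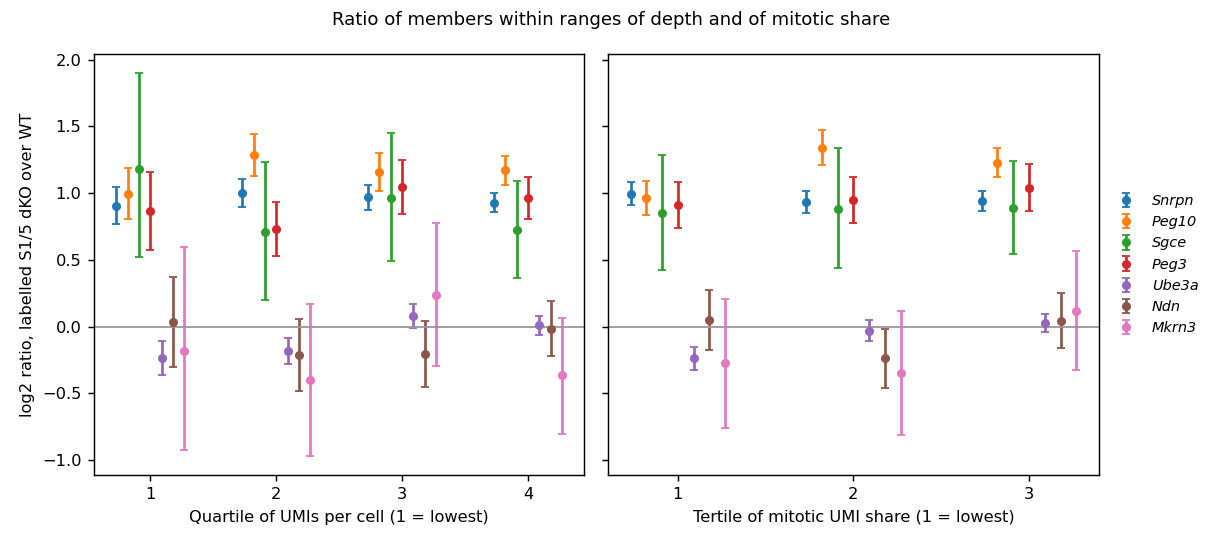
Log2 ratio, the library labelled dKO over WT, of 7 members within quartiles of UMIs per cell (left) and tertiles of the mitotic UMI share (right), with 95% counting intervals. *Snrpn*, *Peg10*, *Sgce* and *Peg3* lie above 0 in every range, and *Ube3a*, *Ndn* and *Mkrn3* lie on either side of 0. Intervals wholly below 0 are those of *Ube3a* in quartiles 1 and 2 and in tertile 1, and of *Ndn* in tertile 2.

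Members were then compared within cells, at 10000 UMIs per cell and within 1 library at a time. *Snrpn* and *Ube3a* were found together in 494 WT cells, 0.993 times the number given by the product of their shares (0.908 to 1.09), and in 937 cells of the library labelled dKO, 0.999 times (0.936 to 1.06). *Snrpn* and *Peg10*, of different clusters, were together 1.02 times (0.876 to 1.18) and 1.00 times (0.926 to 1.08) that number. *Peg10* and *Sgce*, the head-to-head pair, were together in 13 WT cells, 1.43 times (0.762 to 2.45), and in 56 cells of the library labelled dKO, 1.22 times (0.923 to 1.59) that number, with 1 inside both intervals. At 5000 UMIs per cell the values for this pair were 1.49 (0.545 to 3.23) and 1.72 (1.18 to 2.43), so the interval of the second left out 1. *Casd1*, which was not higher, was together with *Peg10* 1.17 times (0.652 to 1.92) and 1.29 times (0.926 to 1.74), and *Mest* 1.51 times (1.09 to 2.04) in WT, where the value at 5000 UMIs was 1.43 (0.835 to 2.29), and 1.03 times (0.954 to 1.12) in the library labelled dKO. At 5000 UMIs in that library, *Casd1* had 1.27 (0.753 to 2.01) and *Mest* 0.985 (0.860 to 1.12), both below the 1.72 of *Sgce*, and the interval of *Casd1* overlapped that of *Sgce*. *Peg10* and *Peg3* were together 1.22 times (0.943 to 1.55) in WT and 1.15 times (1.01 to 1.30) in the library labelled dKO, where the value at 5000 UMIs, 1.22 (0.981 to 1.51), included 1. *Peg3* and *Ube3a*, which was not higher, had 1.09 (0.974 to 1.21) there, and 1.22 (1.03 to 1.45) at 5000 UMIs, the same size. *Snrpn* and *Peg3* were together 0.899 times (0.738 to 1.09) in WT, or 1.21 times (0.873 to 1.63) at 5000 UMIs, and 0.971 times (0.873 to 1.08) in the library labelled dKO. *Peg3* and *Usp29* shared 1 WT cell and 3 cells of the other library, too few to compare.

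With all UMIs of the cells counted, *Sgce* had 2.20 CPM (1.88 to 2.56) in WT cells without a *Peg10* UMI at 10000 UMIs and 3.54 CPM (2.73 to 4.52) in WT cells with one. In the library labelled dKO it had 3.84 CPM (3.39 to 4.33) and 5.71 CPM (5.00 to 6.50). *Sgce* was thus higher in cells with a *Peg10* UMI in both libraries, beyond counting error. *Peg10*, in contrast, had 24.2 and 24.9 CPM in WT cells without and with a *Snrpn* UMI, and 55.9 and 56.1 CPM in those of the other library. *Ube3a* had 80.8 and 81.9 CPM and 77.5 and 79.6 CPM in the same cells.

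Genes whose pattern over cells was most like that of *Snrpn*, *Peg10* and *Peg3* were found by Pearson r of log-scaled UMIs per 10000, as the mean of both libraries (2236 and 2910 cells), among 6434 genes with at least 2000 UMIs. All genes of a cell share its depth, and these weak values in sparse counts are a description. For *Peg10* they were *Fgfbp1*, which encodes a carrier of fibroblast growth factors (r of 0.217 in WT and 0.325 in the library labelled dKO), *Ddah1* (0.174 and 0.349) and the connexin gene *Gja1* (0.171 and 0.313). For *Peg3* they were *Hnrnpu* (0.196 and 0.253), *Caprin1* (0.189 and 0.234) and *Smarca5* (0.178 and 0.241), and *Peg10* stood at rank 52. For *Snrpn* they were *Sms*, *Gpx4* and *Exosc8*, with r of at most 0.238. *Snrpn* had r of 0.0491 and 0.0455 with *Peg10* and 0.0275 and 0.0510 with *Peg3*.

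The cells were then divided by *Fgfbp1*, a division chosen after seeing the data. Since *Fgfbp1* was picked for its r with *Peg10* over these same cells, the order of the *Peg10* levels restates that r and tests nothing. *Fgfbp1* itself had 24.9 CPM in WT and 27.1 CPM in the library labelled dKO, and was found in 15.8% and 16.7% of the cells at 10000 UMIs. *Peg10* had 22.4 CPM (21.4 to 23.5) in WT cells without and 35.7 CPM (32.7 to 38.8) in WT cells with a *Fgfbp1* UMI, and 48.3 CPM (46.9 to 49.8) and 95.8 CPM (91.3 to 101) in those of the other library. *Sgce* followed the same order, with 2.12 CPM (1.81 to 2.46) and 4.27 CPM (3.29 to 5.46) in WT and 3.77 CPM (3.38 to 4.19) and 8.53 CPM (7.22 to 10.0) in the library labelled dKO. *Peg3* had 12.8 and 12.6 CPM in WT, with overlapping intervals, and 23.0 CPM (22.0 to 24.0) and 32.1 CPM (29.5 to 34.8) in the library labelled dKO. *Snrpn* was higher in the cells with a *Fgfbp1* UMI of both libraries, with 54.8 CPM (53.2 to 56.4) and 60.5 CPM (56.6 to 64.6) in WT and 105 CPM (103 to 107) and 125 CPM (119 to 130) in the library labelled dKO. *Ube3a* had 81.3 and 80.9 CPM in WT and 78.8 and 78.7 CPM in the other library. Between the libraries, the log2 ratio of *Peg10* was 1.11 (1.03 to 1.19) in cells without and 1.43 (1.29 to 1.57) in cells with a *Fgfbp1* UMI, and that of *Peg3* was 0.85 (0.74 to 0.96) and 1.35 (1.11 to 1.59). That of *Snrpn* was 0.93 (0.88 to 0.98) and 1.04 (0.93 to 1.16). The r of *Fgfbp1* with *Peg10* was larger in the library labelled dKO (0.325) than in WT (0.217). The larger *Peg10* ratio in cells with a *Fgfbp1* UMI therefore restates that r as well and tests nothing.

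A division by *Mest* was also chosen after seeing the data. In WT, 147 of 2193 cells had a *Mest* UMI at 10000 UMIs, and in these *Snrpn* had 69.4 CPM (63.1 to 76.2) against 54.7 CPM (53.2 to 56.3) in the other 2046 cells. *Peg10* had 34.1 CPM (29.7 to 38.9) against 23.8 CPM (22.8 to 24.8) in the same cells, and both differences were beyond counting error. *Peg3* of WT did not differ beyond it, at 15.4 CPM (12.5 to 18.8) against 12.5 CPM (11.8 to 13.3), nor did *Sgce*, at 2.65 against 2.44 CPM. *Ube3a* and *Pou5f1* of WT also had overlapping intervals, at 83.3 and 81.1 CPM and at 1300 and 1317 CPM. In the library labelled dKO, *Snrpn* had 109 CPM (106 to 111) in the 1591 cells with and 107 CPM (104 to 110) in the 1252 cells without a *Mest* UMI. There, *Peg10* had 58.8 CPM (56.9 to 60.8) against 52.4 CPM (50.4 to 54.5), and *Peg3* 26.1 CPM against 22.3 CPM, with separate intervals. *Ube3a* was also higher in the cells with a *Mest* UMI of that library, at 81.7 CPM (79.4 to 84.0) against 75.2 CPM (72.7 to 77.7), while *Sgce* did not differ (4.59 and 4.46 CPM). *Pou5f1* was lower in those cells, at 1278 CPM (1269 to 1287) against 1309.9 CPM (1300 to 1320). Between cells without a *Mest* UMI, the log2 ratio of the libraries was 0.96 (0.91 to 1.02) for *Snrpn*, 1.14 (1.06 to 1.22) for *Peg10*, 0.87 (0.59 to 1.15) for *Sgce* and 0.83 (0.71 to 0.95) for *Peg3*. Between cells with a *Mest* UMI it was lower for *Snrpn*, at 0.65 (0.51 to 0.79), and for *Peg10*, at 0.79 (0.59 to 0.99), and was 0.80 (0.091 to 1.60) for *Sgce* and 0.76 (0.47 to 1.07) for *Peg3*. The 4 members were thus higher in the library labelled dKO in cells without and with a *Mest* UMI at this depth, and the ratios of *Snrpn* and *Peg10* differed between these cells. Without thinning, a *Mest* UMI was found in 11.2% of WT cells and 87.6% of cells of the library labelled dKO. Most of the 1252 cells of that library counted as without *Mest* therefore held a *Mest* UMI at full depth, and they are not cells lacking *Mest* RNA.

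**Figure D5:**
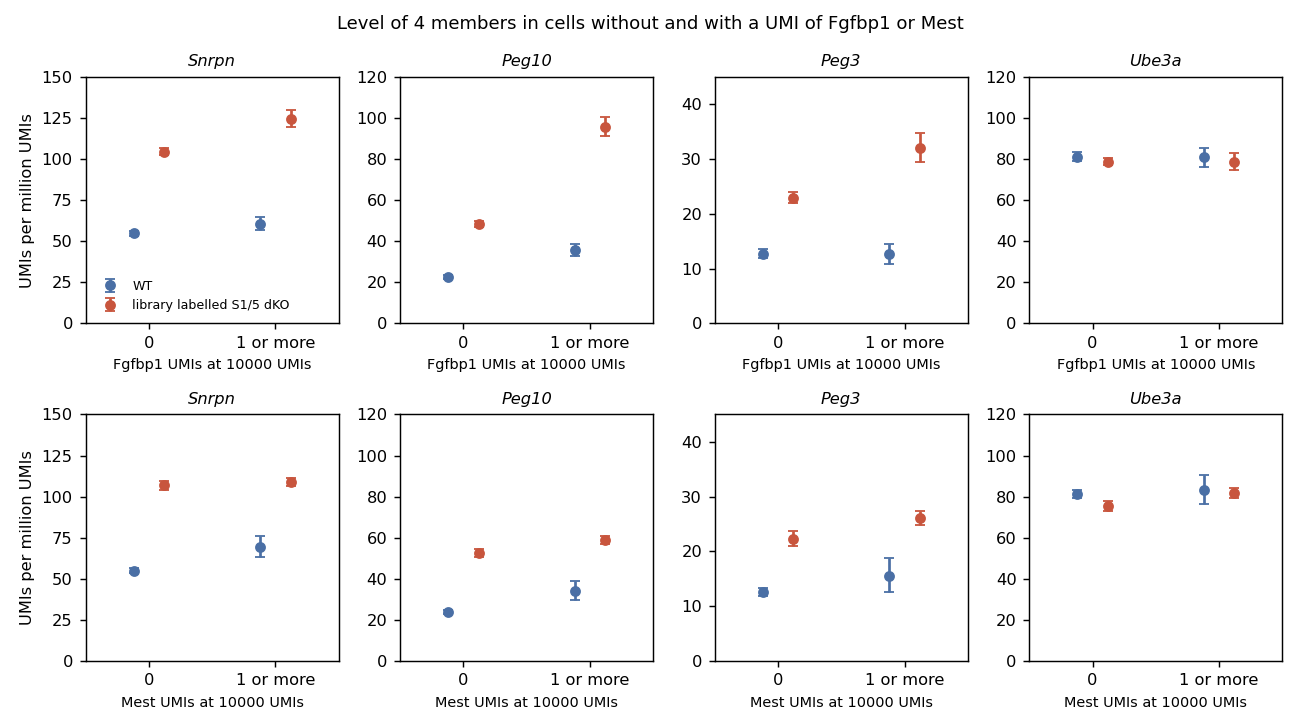
Level of *Snrpn*, *Peg10*, *Peg3* and *Ube3a*, in CPM with 95% Poisson intervals, in cells without and with a UMI of *Fgfbp1* (top) or *Mest* (bottom) at 10000 UMIs, in WT (blue) and the library labelled dKO (red). *Fgfbp1* was picked for its correlation with *Peg10*, whose levels without and with it are 22.4 and 35.7 in WT and 48.3 and 95.8 in the other library, and *Ube3a* does not differ by *Fgfbp1* in either.

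The summed level of the 2-cell-like markers was higher in the library labelled dKO, to a large part through *Tcstv3* (14 and 177 UMIs), while *Usp17lc* was lower (23 and 10 UMIs). Ratios were recomputed without cells rich in these markers or in endoplasmic reticulum chaperone UMIs. The remaining 2148 WT cells and 2835 cells of the other library gave log2 ratios of 0.95 for *Snrpn*, 1.18 for *Peg10*, 0.85 for *Sgce*, 0.96 for *Peg3* and −0.054 for *Ube3a*. All were within the counting intervals of the values from all cells.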

How the data were processed

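Reads of 10x Genomics 3′ v3 libraries had been aligned to mm10 and counted with Cell Ranger 3.0.2. The authors deposited UMI counts per gene and barcode without normalization, for 31053 genes and 6794880 barcodes per library, 100446187 UMIs for WT and 113937221 for the library labelled dKO. As in the study, a barcode was a cell if 1000 or more genes were detected and no more than 5% of its UMIs were mitochondrial. UMIs were summed over cells and divided by total UMIs. Ratios are given from 50 UMIs up, summed over the libraries, with an exact 95% conditional interval. Differences of 2 log2 ratios carry an exact conditional interval of the odds ratio. Doublets were not called; cells of over 2 times the median UMIs were left out in an alternative. Positions are those of GENCODE M21, which matched 30934 of the gene IDs. Promoters are from RefSeq.

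Named genes were the 9 members, the targeted genes, listed genes of the 3 domains, paralogs, *Mest*, markers, and for *Snrpn*, *Peg10* and *Peg3* the 3 genes of highest mean r among those with at least 2000 UMIs. The members and lists were all chosen with earlier results of these data known. Python 3.11.15, numpy 2.4.6, scipy 1.17.1, pandas 2.3.3, matplotlib 3.10.9, R 4.3.3 and edgeR 4.0.16 (TMM scaling) were used. The ratio step was tested on simulated data. The alternatives were other cell filters, thinning to 10000 or 5000 UMIs, per-cell means, TMM and median scaling, all barcodes, other UMI minimums, 2-fold, and flanks of 2 Mb. *Snhg14*, *Zim2*, *Zfp264*, *Peg3os* and *Apeg3* were not analysed here.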

Additional observations from a re-analysis of the deposited data

How the results depend on the processing

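The log2 ratios of *Snrpn*, *Sgce* and *Usp29* kept within their counting intervals under the alternatives to the cells, counts and scaling (0.92 to 0.99 over 16 for *Snrpn*, and 0.83 to 0.99 and 0.87 to 1.47 over 15 each for *Sgce* and *Usp29*). Single groups of cells did not all keep to them, such as cells with a *Mest* UMI for *Snrpn* (0.65) and the lowest depth quartile for *Sgce* (1.18) and *Usp29* (3.23). *Peg10* and *Peg3* were above 1.5-fold under the same 15 (1.05 to 1.29 and 0.69 to 0.96). A random draw of 10000 UMIs per cell moved *Ndn* to −0.29, *Mkrn3* to 0.20, *Ube3a* to −0.10, *Peg10* to 1.29 and *Peg3* to 0.69, and a draw of 5000 moved *Peg10* to 1.05 and *Peg3* to 0.84 and gave the other sign for *Ndn* (0.034) and *Mkrn3* (−0.34), so the draws give no direction for these 2 genes. The mean of per-cell values, with no draw, gave 1.18 for *Peg10* and 0.92 for *Peg3*. The draws keep fewer UMIs. Of alternatives chosen after seeing the data, cells without a *Mest* UMI gave −0.11 for *Ube3a* and 0.83 for *Peg3*, and cells without a *Fgfbp1* UMI gave 1.11 for *Peg10*, and the cause was not tested. With 2-fold in place of 1.5-fold, 2 of 8 members were higher. With a minimum of 20 or 500 UMIs, 5 of 8 and 4 of 6 were 1.5-fold higher, against 663 of 15166 (4.37%) and 91 of 9691 (0.939%) of all genes. TMM and median scaling gave 0.96 and 0.96 for *Snrpn*, and 1.20 and 1.20 for *Peg10*. With 1 library per condition no replicate could be left out, and the spread between cultures or clones cannot be told apart from the genotype. No paired analysis was possible because each group has 1 library. Depth limits *Magel2* (18 UMIs) and *Usp29* (89 UMIs), and counts of *Snrpn* are limited by the overlapping genes.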
